A study of Mus musculus with 6 samples.

Results

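Genes of cholesterol synthesis and sterol handling were followed in CD4+ T cells of the mouse spleen. They were chosen by name, for their known roles, and number 33 of the 38216 gene symbols in the table. By role they were 19 enzymes of synthesis, 5 genes of the sterol-sensing machinery, 2 nuclear receptor genes, 2 efflux pump genes, 3 sterol carrier genes and 2 esterification enzyme genes. All 33 were found, and Msmo1 was found under its older symbol Sc4mol. A gene was tested when it reached 1 TPM (a level scaled for transcript length and for the library's total) in at least 2 of the 6 libraries, which 32 of the 33 did. The exception was Nr1h3.

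The libraries came from naive C57BL/6 mice on postnatal day 28 that carried the IL21-VFP reporter, in which VFP fluorescence reports transcription of the cytokine gene Il21. All 3 pools were sorted as CD4+ cells, so they share strain, age, tissue, reporter and sort, and differ in VFP and in ICOS, a costimulatory receptor of activated T cells. N cells were VFP- and ICOS-, ACT cells VFP- and ICOS+, and ACT_IL21 cells VFP+ and ICOS+. Each pool was sequenced in 2 libraries. Each pool is a mixture of whatever CD4+ subsets fall in its gate, and the labels do not say whether its 2 libraries came from separate animals, so the p-values below rest on a spread that may be no more than technical.

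Cells make cholesterol from acetyl-CoA through the mevalonate pathway, which also yields the isoprenoids that anchor signaling proteins to membranes. When membrane sterol is low, SCAP escorts the SREBP transcription factors out of the endoplasmic reticulum and the genes of synthesis are transcribed, and when it is high, INSIG proteins hold SCAP back. Excess sterol activates the LXR nuclear receptors, whose targets include the efflux pumps ABCA1 and ABCG1, or is stored as esters made by the SOAT enzymes. Dividing T cells need sterol for new membrane.

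The labels were checked first. Icos was at 31.9 and 35.7 TPM in N and between 185 and 254 TPM in the 4 other libraries, and Il21 was at 44.5 and 51.9 TPM in ACT_IL21 and at most 1.26 TPM elsewhere. All 11 genes of a T cell list (Cd3e, Cd4, Lck, Trac and others) stood at 23.5 TPM or more in every library. Summed markers of natural killer and NKT cells, 11 listed genes, stood at 63.2 and 70 TPM in N, 1116 and 995 in ACT, and 220 and 178 in ACT_IL21. Ncr1, a defining receptor gene of natural killer cells, was at most 1.06 TPM. By the same limma test, 6 of the 10 tested were higher in ACT than in N, beside 4.15% of all genes. These were Klrb1c, Klrk1, Klre1, Zbtb16, Xcl1 and Nkg7. In ACT_IL21 against N, Klrb1c and Nkg7 were higher and Klrd1 and Prf1 lower, beside 3.82% and 1.26% of all genes. The B cell list (10 genes, Pax5 at 0 throughout) summed to 4.5 to 6.62 TPM in N, 20.9 and 23.3 in ACT and 22.1 and 26.9 in ACT_IL21. The myeloid list of 12 genes summed to 34.5 and 40.7 TPM in N and 58 to 72.4 TPM in the 4 other libraries, most of it Cst3, with C1qa, C1qb and Cd14 at 0 throughout. The plasma cell list (6 genes, Tnfrsf17 at 0) summed to 85.5 to 104 TPM in N, 156 and 206 in ACT and 142 and 187 in ACT_IL21, mainly Xbp1. Xbp1 itself passed the limma test against N in neither pool (log2 difference 0.4 in ACT and 0.49 in ACT_IL21). Irf4 was higher in both (2.29 and 2.54), and Prdm1 in ACT alone (2.19). The CD8 T cell pair summed to 19 and 27 TPM in N and 3.41 to 9.88 TPM elsewhere, and the erythroid list ranged from 5.79 to 99.8 TPM without order between pools. A cell cycle list of 20 genes summed to 534 and 677 TPM in N, 837 and 906 in ACT, and 956 and 877 in ACT_IL21. Against N, 4 of the 20 were higher in ACT and 8 in ACT_IL21 by the limma test, beside 4.15% and 3.82% of all genes. None of the 20 passed in ACT_IL21 against ACT, beside 1.95% of all genes. Fewer cells of a type and less RNA per cell cannot be told apart in such pools.

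The enzymes of sterol synthesis were expressed in all 3 pools, and none of the 19 passed the test in any of the 3 comparisons (limma on log2(TPM + 1), adjusted p below 0.05 over the 13311 genes tested), beside 5.58%, 5.09% and 1.95% of all genes. Their summed level was 412 and 428 TPM in N, 429 and 390 TPM in ACT and 455 and 429 TPM in ACT_IL21, so the sums of the pools overlapped. Differences between pool means of single enzymes, on the log2(TPM + 1) scale, ran from -1.05 to 0.62 for ACT against N, from -0.94 to 0.62 for ACT_IL21 against N and from -1.38 to 0.97 for ACT_IL21 against ACT. At unadjusted p below 0.05 there were 3, 2 and 2 of the 19 enzymes in these comparisons, beside 18.6%, 18.7% and 14.9% of all genes. The data do not show that the enzymes were equal between pools: the 95% intervals of 9, 6 and 7 of the 19 enzymes reached a difference of 1 or more, in either direction, on the log2 scale.

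**Figure D1:**
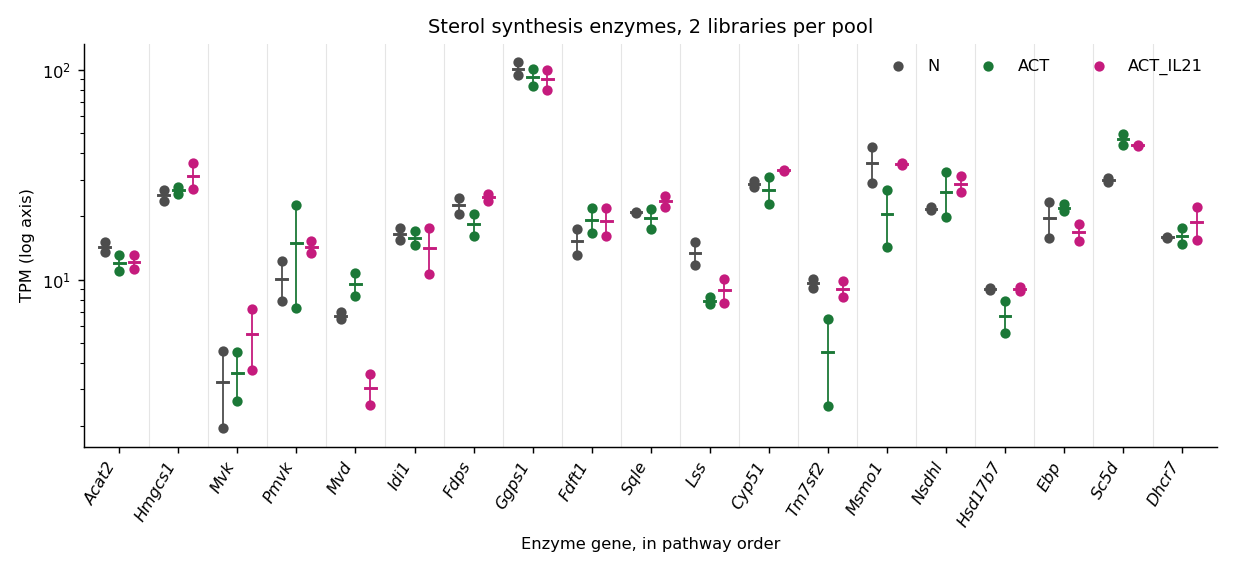
Levels of the 19 synthesis enzymes in TPM on a log axis, in approximate pathway order, with 1 point per library, a bar at the mean of each pool and a line joining its 2 libraries. Ggps1 lies above all other enzymes in each pool, and the points of the 3 pools are interleaved for most enzymes.

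The early enzymes build the isoprenoid units. Acat2, the cytosolic thiolase that joins acetyl-CoA units (not the esterification enzyme that shares the name), stood at 13.6 and 15.2 TPM in N, 11 and 13.1 in ACT and 11.2 and 13.2 in ACT_IL21. Hmgcs1, whose enzyme makes HMG-CoA, was at 23.8 and 26.7 TPM in N, 25.7 and 27.6 in ACT and 26.9 and 35.8 in ACT_IL21. The kinases Mvk and Pmvk, which phosphorylate mevalonate in turn, were low and uneven, with Mvk between 1.96 and 7.25 TPM and Pmvk between 7.37 and 22.7 TPM over the 6 libraries. Both extremes of Pmvk were ACT libraries.

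Mvd, the decarboxylase that completes the isoprenoid unit, had the largest difference of any synthesis enzyme. Its libraries were at 6.48 and 6.99 TPM in N, 8.33 and 10.7 TPM in ACT and 2.54 and 3.56 TPM in ACT_IL21. The 3 pools did not overlap, with ACT highest and ACT_IL21 lowest. The difference of ACT_IL21 from ACT was -1.38 ± 0.38 (SE; limma adjusted p = 0.13), that of ACT_IL21 from N was -0.94 ± 0.38 (adjusted p = 0.23) and that of ACT from N was 0.44 ± 0.38 (adjusted p = 0.618), so none passed.

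Idi1, the isomerase of the isoprenoid units, ranged from 10.6 to 17.7 TPM, both in ACT_IL21. Fdps, which joins the units into farnesyl diphosphate, ranged from 16.2 TPM in ACT to 25.5 TPM in ACT_IL21. Ggps1, on the branch that supplies geranylgeranyl groups to proteins rather than sterol, was the most abundant enzyme of the list in every library, at 80.4 to 108 TPM, or 18.8% to 25.8% of the summed level. Fdft1 (13.2 to 22 TPM), which commits farnesyl units to squalene, and Sqle (17.4 to 25 TPM), the squalene epoxidase, overlapped between N and ACT. Lss, which closes the ring to give lanosterol, was at 11.8 and 15.1 TPM in N, 7.66 and 8.23 in ACT and 7.76 and 10.1 in ACT_IL21. N lay above both other pools for Lss without passing the test (ACT against N -0.68 ± 0.33 SE, adjusted p = 0.324).

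The later enzymes convert lanosterol to cholesterol. Cyp51, the demethylase that acts first, stood at 22.9 to 33.4 TPM. Msmo1, which oxidizes the methyl groups, was at 28.9 and 42.8 TPM in N, 14.3 and 26.8 in ACT and 35 and 35.9 in ACT_IL21. Tm7sf2, a sterol reductase gene, was at 9.13 and 10.1 TPM in N, 2.5 and 6.51 in ACT and 8.27 and 9.89 in ACT_IL21. ACT was the lowest pool for both, and its 2 libraries were farther apart, as a ratio, than those of N or ACT_IL21. Against N, Msmo1 in ACT differed by -0.81 ± 0.33 (SE, adjusted p = 0.236) and Tm7sf2 by -1.05 ± 0.44 (adjusted p = 0.257). In the annotation Tm7sf2 overlaps the protein-coding Vps51 and Fdps the protein-coding Gm43738 on the same strand, and Ggps1, Fdft1, Cyp51, Mvd, Srebf1 and Npc1 each overlap a protein-coding gene on the opposite strand (Arid4b for Ggps1), so these values are uncertain where reads were shared.

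Sc5d, the desaturase near the end of the pathway, was at 29.1 and 30.4 TPM in N, 43.8 and 49.3 in ACT and 43.4 and 44 in ACT_IL21. Both ICOS+ pools lay above N. Its difference was 0.62 ± 0.19 (SE, adjusted p = 0.114) for ACT and 0.54 ± 0.19 (adjusted p = 0.174) for ACT_IL21, short of the threshold in both. The remaining steps were carried by Nsdhl, a dehydrogenase gene (19.96 to 32.45 TPM), Hsd17b7, a ketosteroid reductase gene (5.59 to 9.28 TPM), Ebp, a sterol isomerase gene (15.3 to 23.3 TPM), and Dhcr7, whose enzyme reduces dehydrocholesterol to cholesterol (14.8 to 22.2 TPM). Adjusted p was at least 0.544 in each comparison for these 4.

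Of the 5 sterol-sensing genes none passed the limma test in any comparison, and at unadjusted p below 0.05 there were 0, 0 and 1, a count too small to set against the 18.6%, 18.7% and 14.9% of all genes. Srebf2, the SREBP gene most tied to cholesterol synthesis, was at 28.1 and 41.3 TPM in N, 20.2 and 29.2 in ACT and 44.9 and 46.9 in ACT_IL21. ACT_IL21 was above both other pools, which overlapped each other. The difference of ACT_IL21 from ACT was 0.89 ± 0.27 (SE, 95% interval 0.27 to 1.51, adjusted p = 0.171). Srebf1, the SREBP gene most tied to fatty acid synthesis, varied widely within pools, at 12.6 and 29.5 TPM in N, 15 and 44.2 in ACT and 22.7 and 32.8 in ACT_IL21. Scap, the escort protein gene, likewise held 24.5 and 38.5 TPM in N, 15.4 and 40.4 in ACT and 20.7 and 27.1 in ACT_IL21.

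Insig1, itself a target of SREBP and so a reporter of pathway activity in many cells, was the steadiest of the 5, between 21.2 and 27.9 TPM in all 6 libraries. Its differences between pools were at most 0.25 on the log2 scale, with a 95% interval of -0.27 to 0.77 for ACT_IL21 against ACT. Insig2, the second INSIG gene, ranged from 15.8 to 29 TPM, both within ACT_IL21. Of the LXR genes, Nr1h2 (LXR beta) was at 9.33 and 21.1 TPM in N, 10.4 and 13.7 in ACT and 18.7 and 21.9 in ACT_IL21. Nr1h3 (LXR alpha) was listed at 0 in both ACT libraries and at 0.14 to 0.5 TPM in the other 4, and was not tested.

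**Figure D2:**
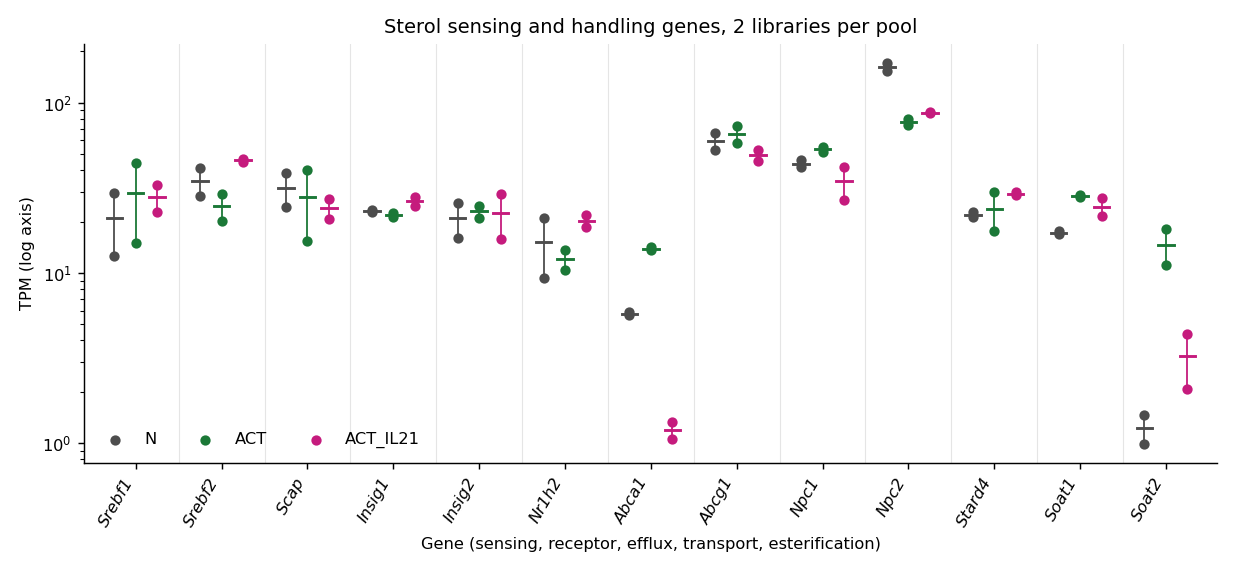
Levels of the 13 tested genes of sterol sensing, LXR, efflux, transport and esterification in TPM on a log axis, with 1 point per library, a bar at the mean of each pool and a line joining its 2 libraries. The 3 pools of Abca1, N against the ICOS+ pools for Npc2, and ACT against N for Soat2 are farther apart than the libraries within them.

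The members that passed the test were genes of sterol efflux, lysosomal transport and esterification. In ACT against N these were Soat2, which was higher, and Npc2, which was lower, 2 of the 32 tested (6.25%), beside 5.58% of all genes tested (4.15% higher and 1.43% lower). In ACT_IL21 against N they were Abca1 and Npc2, both lower, again 6.25%, beside 5.09% of all genes (3.82% higher and 1.26% lower). In ACT_IL21 against ACT the single call was Abca1, lower, or 3.12%, beside 1.95% of all genes (0.796% higher and 1.15% lower). An F test over the 3 pools called Abca1, Npc2 and Soat2 (adjusted p = 0.00991, 0.00939 and 0.0237), 3 of 32, beside 7.03% of all genes. The share of sterol genes called was thus near that of all genes in each comparison.

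Abca1 encodes a pump that loads cholesterol onto apolipoproteins and is a classic LXR target. It held 5.62 and 5.87 TPM in N, 13.6 and 14.1 TPM in ACT and 1.06 and 1.33 TPM in ACT_IL21. The 3 pools were well separated, with ACT highest and ACT_IL21 lowest. ACT_IL21 was lower than ACT by a log2 difference of -2.76 ± 0.37 (SE, adjusted p = 0.0129, n = 2 libraries per pool, limma) and lower than N by -1.62 ± 0.37 (adjusted p = 0.0494). ACT lay above N by 1.14 ± 0.37 without passing (adjusted p = 0.14).

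The call of Abca1 against N lay near the threshold. With a pseudocount of 5 TPM in place of 1 TPM, which shrinks differences of low genes, the values became -1.61 against ACT (adjusted p = 0.0101) and -0.79 against N (adjusted p = 0.0878, no longer a call). Both calls ended with no filter on low values (adjusted p = 0.0543 and 0.117) and with only the 2 pools compared in the fit (0.0728 and 0.068). With any library left out the log2 difference of ACT_IL21 from ACT stayed between -2.67 and -2.85, at adjusted p of 0.0629 to 0.126: 0.0696 and 0.0715 without N replicates 1 and 2, 0.0719 and 0.0629 without ACT replicates 1 and 2, and 0.116 and 0.126 without ACT_IL21 replicates 1 and 2. Against N it stayed between -1.53 and -1.71, at adjusted p of 0.281 and 0.329 without N replicates 1 and 2, 0.0593 and 0.059 without ACT replicates 1 and 2, and 0.197 and 0.169 without ACT_IL21 replicates 1 and 2. Beside Abca1, the summed natural killer and NKT list was highest in ACT, though not each of its genes was. Its sums in ACT_IL21 (178 and 220 TPM) lay above those in N, where Abca1 was higher. The myeloid sum was lowest in N (34.5 and 40.7 TPM) and higher in the ACT libraries (58.4 and 72.4 TPM) and the ACT_IL21 libraries (58 and 59.9 TPM). Of the 5 of its 12 genes that were tested, Cst3 was higher in ACT than in N (1.01, limma adjusted p = 0.0338). Fcgr3 (-1.93, adjusted p = 0.0767) and Itgam (-0.6, adjusted p = 0.546) were lower than N in every ACT library without passing. Cd68 and Tyrobp overlapped between these pools, and 3 of the 12 were at 0. The part of other cells in the Abca1 values was not tested.

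Abcg1, the partner pump gene that passes sterol to lipoprotein particles, was more abundant than Abca1 in every library, at 53 and 66.2 TPM in N, 57.7 and 72.9 in ACT and 45.5 and 52.8 in ACT_IL21. ACT_IL21 was the lowest pool here too, but by -0.4 ± 0.21 against ACT (SE, adjusted p = 0.423) and -0.27 ± 0.21 against N (adjusted p = 0.56). Abca1 made up 8.14% and 9.58% of the summed TPM of the 2 pumps in N, 16.3% and 19% in ACT and 1.97% and 2.84% in ACT_IL21.

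Npc2 encodes the lysosomal protein that picks up cholesterol freed from lipoprotein and hands it to the membrane protein encoded by Npc1. It was the most abundant of the 33 genes over the 6 libraries, with 154 and 171 TPM in N, 73.9 and 80.0 TPM in ACT and 86.8 and 88.1 TPM in ACT_IL21. N lay far above both ICOS+ pools. Npc2 fell in ACT by a log2 difference of -1.07 ± 0.15 (SE, adjusted p = 0.00607, limma) and in ACT_IL21 by -0.89 ± 0.15 (adjusted p = 0.0159), while the ICOS+ pools differed by 0.18 ± 0.15 (adjusted p = 0.631). The comparisons with N share the N libraries. Both calls ended in a fit with no intensity trend (adjusted p = 0.0548 and 0.0925). The call in ACT was lost as well without N replicate 1 (-0.99, adjusted p = 0.0962) and without N replicate 2 (-1.14, adjusted p = 0.0601). The ACT_IL21 call also ended without N replicates 1 and 2 (adjusted p = 0.167 and 0.115) and without ACT_IL21 replicates 1 and 2 (adjusted p = 0.139 and 0.134), at differences of -0.81 to -0.96.

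Npc1 did not follow Npc2. It was at 41.8 and 45.9 TPM in N, 51 and 55.1 in ACT and 26.9 and 42.1 in ACT_IL21, and the largest difference, ACT_IL21 against ACT, was -0.64 ± 0.24 (SE, adjusted p = 0.274). Npc1 therefore took 21.1% and 21.3% of the summed TPM of the pair in N, 39% and 42.7% in ACT and 23.4% and 32.7% in ACT_IL21. Stard4, a soluble carrier of cholesterol between membranes, was at 21.2 and 22.8 TPM in N, 17.7 and 29.7 in ACT and 28.8 and 29.7 in ACT_IL21, and no comparison passed (adjusted p at least 0.526).

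Soat2 and Soat1 encode the acyltransferases that turn cholesterol into storage esters. Soat1 is the form found in most tissues, and Soat2 is known mainly from intestine and liver. Soat2 held 0.99 and 1.45 TPM in N, 11.1 and 18.2 TPM in ACT and 2.08 and 4.37 TPM in ACT_IL21. ACT was the highest pool, ACT_IL21 lay between, and no 2 pools overlapped. Soat2 rose in ACT against N by a log2 difference of 2.78 ± 0.47 (SE, adjusted p = 0.0136, limma). ACT_IL21 differed from ACT by -1.9 ± 0.47 (adjusted p = 0.0979) and from N by 0.88 ± 0.47 (adjusted p = 0.377), neither past the threshold. The call ended without N replicate 1 (2.63, adjusted p = 0.151), without N replicate 2 (2.93, adjusted p = 0.119) and without ACT replicate 1 (2.45, adjusted p = 0.0766), and with no filter on low values (adjusted p = 0.0572). With a pseudocount of 5 TPM the difference was 1.63 (adjusted p = 0.0119). The natural killer and NKT marker sum had the same order of pools as Soat2, with 995 to 1116 TPM in ACT, 178 to 220 TPM in ACT_IL21 and 63.2 to 70 TPM in N. Not each gene of that list had this order. Of its 10 tested genes, 6 were higher in ACT than in N (limma adjusted p below 0.05). In ACT_IL21 against N, 2 were higher and 2 lower, Klrd1 (-1.8) and Prf1 (-2.95). Prf1 also lay below N in ACT (-1.25, adjusted p = 0.338). The part of such cells in the Soat2 values was not tested.

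Soat1 was at 17 and 17.6 TPM in N, 27.9 and 28.6 in ACT and 21.6 and 27.4 in ACT_IL21. Both ICOS+ pools lay above N, and neither difference passed (0.68 ± 0.24 SE, adjusted p = 0.168 for ACT, and 0.47 ± 0.24, adjusted p = 0.346 for ACT_IL21). Soat1 exceeded Soat2 in every library. Soat2 took 5.34% and 7.88% of the pair's summed TPM in N, 28.4% and 38.9% in ACT and 7.05% and 16.9% in ACT_IL21.

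**Figure D3:**
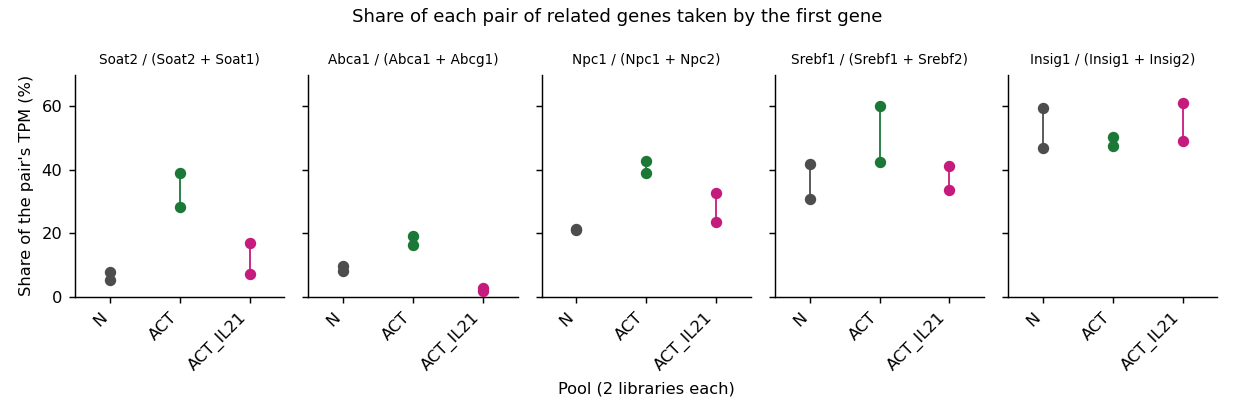
Share of the summed TPM of a pair of related genes taken by the gene named first, in percent, with 1 point per library. Soat2, Abca1, Npc1 and Srebf1 take their highest shares in ACT, while the libraries overlap between pools for Insig1. For Srebf1 the margin is small, with 42.6% in the lower ACT library and 41.7% in the higher N library.

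Across the list, the differences of the 32 tested genes were spread around those of all genes. The median difference on the log2 scale was 0.04 for the sterol genes and 0.02 for all genes in ACT against N, where scaling to the upper quartile turned both negative (-0.07 and -0.07). It was 0.14 and 0.1 in ACT_IL21 against N, where quantile normalization turned both negative (-0.04 and -0.05), and 0.13 and 0.08 in ACT_IL21 against ACT. Libraries of the pools did not overlap for 14 genes in ACT against N (6 higher and 8 lower, 43.8%, beside 47% of all genes), for 17 in ACT_IL21 against N (11 higher and 6 lower, 53.1%, beside 51.4%) and for 17 in ACT_IL21 against ACT (10 higher and 7 lower, 53.1%, beside 41.8%). Scaling each library to its upper quartile moved the median of all genes in ACT_IL21 against N by -0.13 and quantile normalization by -0.15. The sterol median less that of all genes was 0.005 to 0.054 over the 3 comparisons under the 3 other scalings tried. Such scalings move both medians nearly together, so this gap is no test of whether sterol genes differ from all genes. Among calls of all genes in ACT_IL21 against N, 75.2% were higher with the deposited values and 64.8% after upper quartile scaling. The calls of Abca1, Npc2 and Soat2 and their directions were the same under each scaling.

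**Figure D4:**
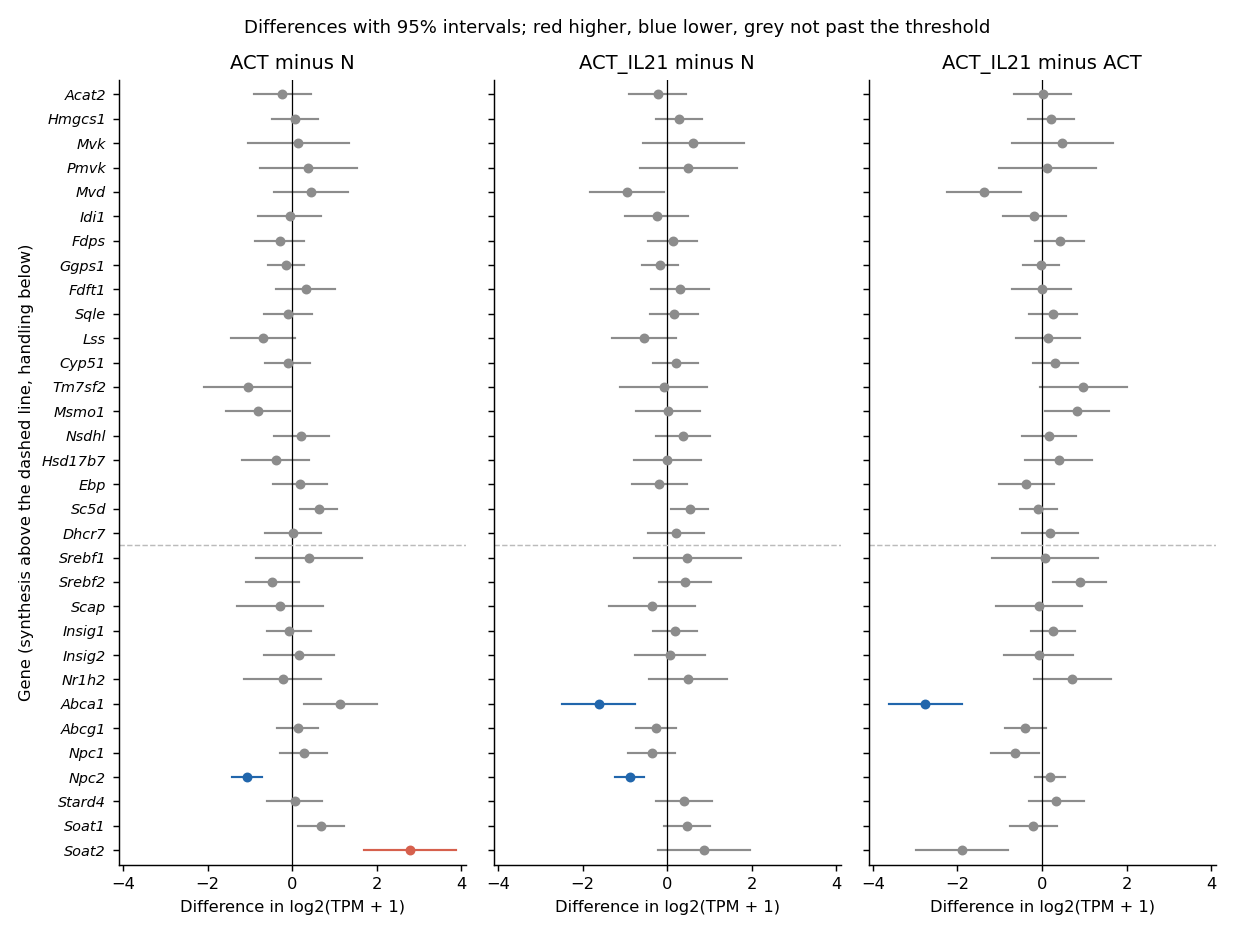
Difference of each of the 32 tested genes in log2(TPM + 1) with its 95% interval in the 3 comparisons, in red where higher, in blue where lower and in grey where the adjusted p did not pass. The colored intervals belong to Soat2 and Npc2 in ACT against N, Abca1 and Npc2 in ACT_IL21 against N, and Abca1 in ACT_IL21 against ACT.

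**Figure D5:**
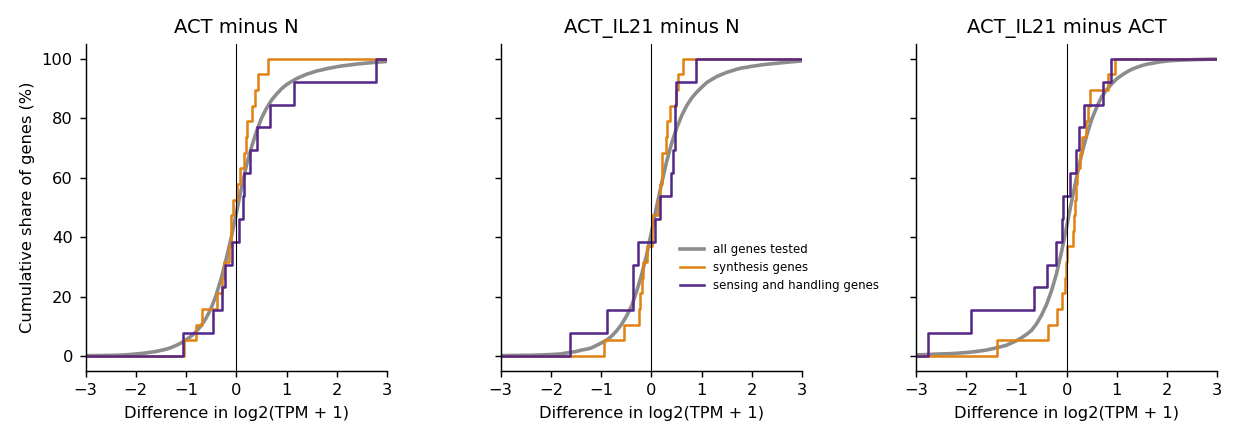
Cumulative share of genes, in percent, by difference in log2(TPM + 1) for all 13311 genes tested, the 19 synthesis genes and the 13 sensing and handling genes. The synthesis genes lie between -1.05 and 0.62 in ACT against N, and the sensing and handling genes include Soat2 at 2.78 there and Abca1 at -2.76 in ACT_IL21 against ACT.

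Libraries of a pool differed by a median factor of 1.13 in N, 1.27 in ACT and 1.2 in ACT_IL21 over the 32 genes, beside 1.23, 1.36 and 1.25 over all tested genes. More than 1.5-fold apart were 6 sterol genes in N, 9 in ACT and 5 in ACT_IL21 (18.8%, 28.1% and 15.6%). Among all tested genes with both values above 0 the shares were larger, at 25.4%, 40.2% and 30.3%. Mvk was among the sterol genes this far apart in all 3 pools, and Scap, Srebf1 and Pmvk were among those of N and ACT. For these genes the spread within a pool limits what the comparison can show, and the 95% interval of Srebf1 in ACT against N ran from -0.85 to 1.66.

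Upstream sequence was read from RefSeq (GRCm38.p6) for the 26 members that have a window there, each window of 250 bases before and 50 after a gene start. These members have 35 windows, as some genes have more than 1 start, and a gene was counted when any of its windows matched. The letters searched on both strands were CCAAT, the box bound by NF-Y, a partner of SREBP at sterol genes, CACGTG, an E-box, and TCACNCCAC, the core of the sterol regulatory element. These matches are descriptions of letters, not of binding. CCAAT was found in 15 of 16 synthesis genes (93.8%) and 6 of 10 other members, beside 41.1% of the 27025 genes with a window and 43.7% of those tested here. Counted by window, the shares were 78.9% for synthesis genes and 43.8% for other members, beside 38.4% for genes tested here. CACGTG was found in 6 of 26 members (23.1%), namely Abca1, Dhcr7, Hsd17b7, Insig1, Sc5d and Scap, beside 8.09% of all genes and 11.9% of those tested here. The sterol element core was found in Hmgcs1 alone, 1 of 26 (3.85%), beside 1.44% of all genes. Hmgcs1 holds no CACGTG in its window, so an overlap of sterol core and E-box could not arise.

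The 250 bases before the start are shown for Abca1 and Npc2, because these genes passed the test, and for Hmgcs1 and Mvk, as synthesis genes that hold CCAAT and did not pass. Soat2, which also passed, is among the members with no window. Capitals mark matches to the 3 motifs, and each sequence is written in the direction of its gene. Abca1 (chr4:53159896-53160145, minus strand) holds CACGTG with its first base 147 bases before the start. Npc2 (chr12:84773113-84773362, minus strand) holds CCAAT or its complement at 75 and 6 bases. Hmgcs1 (chr13:119690101-119690350, plus strand) holds the sterol core at 137 bases and CCAAT or its complement at 237, 176 and 45 bases, and Mvk (chr5:114444019-114444268, plus strand) holds the latter at 173, 120, 67, 50 and 14 bases.
Abca1: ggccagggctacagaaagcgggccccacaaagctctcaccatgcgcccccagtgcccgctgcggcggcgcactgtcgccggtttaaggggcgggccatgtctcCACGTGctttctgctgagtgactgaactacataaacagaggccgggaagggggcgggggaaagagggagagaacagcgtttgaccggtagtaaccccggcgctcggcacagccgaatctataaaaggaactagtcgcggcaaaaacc
Npc2: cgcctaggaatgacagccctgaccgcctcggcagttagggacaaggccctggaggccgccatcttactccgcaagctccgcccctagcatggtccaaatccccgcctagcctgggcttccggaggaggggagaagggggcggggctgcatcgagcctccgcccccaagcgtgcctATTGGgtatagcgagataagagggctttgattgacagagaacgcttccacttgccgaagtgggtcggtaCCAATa
Hmgcs1: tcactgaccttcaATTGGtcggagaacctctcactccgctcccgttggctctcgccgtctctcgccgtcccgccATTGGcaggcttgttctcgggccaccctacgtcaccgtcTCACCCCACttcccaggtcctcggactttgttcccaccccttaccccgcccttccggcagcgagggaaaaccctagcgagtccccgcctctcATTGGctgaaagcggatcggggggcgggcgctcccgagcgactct
Mvk: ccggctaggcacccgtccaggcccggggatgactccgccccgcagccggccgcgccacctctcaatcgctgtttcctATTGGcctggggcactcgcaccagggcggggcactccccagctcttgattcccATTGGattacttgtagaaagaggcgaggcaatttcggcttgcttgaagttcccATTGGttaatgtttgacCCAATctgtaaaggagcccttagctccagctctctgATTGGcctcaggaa

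In the annotation, Abca1 lies on chromosome 4 (53030787 to 53159895, minus strand), Npc2 on chromosome 12 (84754562 to 84773152, minus strand) and Soat2 on chromosome 15 (102150526 to 102163469, plus strand), all protein-coding and in GRCm38, and none of the 3 overlaps another annotated gene.

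Further genes of sterol and SREBP biology, 86 in the table and 73 tested, were counted in the same way. In ACT against N, 2 were higher and 3 lower (6.85%), in ACT_IL21 against N 2 higher and 2 lower (5.48%), and in ACT_IL21 against ACT 1 higher (1.37%), again near the shares of all genes. Gramd1b, whose protein moves cholesterol from the plasma membrane to the endoplasmic reticulum, held 17 and 23.8 TPM in N, 74.9 and 95.2 in ACT and 67.3 and 90.7 in ACT_IL21. It rose in both ICOS+ pools against N (2.01 ± 0.25 SE, adjusted p = 0.00312, and 1.9 ± 0.25, adjusted p = 0.00513, limma). The ACT call of Gramd1b held under all 17 alternatives, while the ACT_IL21 call ended without N replicate 2 (1.67, adjusted p = 0.0728) and without ACT_IL21 replicates 1 and 2 (2.12 and 1.69, adjusted p = 0.0654 and 0.0973).

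Lipa, the lysosomal acid lipase gene whose enzyme frees the cholesterol that Npc2 binds, fell in ACT from 133 and 145 TPM to 66.9 and 77.1 TPM (-0.94 ± 0.16 SE, adjusted p = 0.0128), and its value in ACT_IL21 was 112 and 116 TPM. Gpr183, a receptor for oxysterols that positions lymphocytes, held 81.5 and 84.6 TPM in N, 35.4 and 51.2 in ACT and 98.7 and 105 in ACT_IL21. It was lower in ACT than in N (-0.95 ± 0.2, adjusted p = 0.0381) and higher in ACT_IL21 than in ACT (1.24 ± 0.2, adjusted p = 0.0258). Rxra, the partner receptor of LXR, rose in ACT against N (1.76 ± 0.39, adjusted p = 0.0418). Arl4c, a small GTPase gene known as an LXR target, fell in ACT (-0.86 ± 0.15, adjusted p = 0.0159) and in ACT_IL21 (-1.24 ± 0.15, adjusted p = 0.0041) from 296 and 298 TPM in N.

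From the neighboring lipid pathways, Acss2, which makes acetyl-CoA from acetate, fell in ACT_IL21 against N (-1.9 ± 0.36 SE, adjusted p = 0.0241), and Scd2, a fatty acid desaturase gene and SREBP target, rose (1.4 ± 0.19, adjusted p = 0.00673) from 24.6 and 25.4 TPM to 60.9 and 74.8 TPM. None of the 13 genes of isoprenoid use passed the limma test (1, 0 and 2 at unadjusted p below 0.05 in the 3 comparisons), nor did any of the 10 genes of SREBP processing and degradation (1, 0 and 1), where 18.6%, 18.7% and 14.9% of all genes had such a p.

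With 2 libraries a pool, most of these further calls also ended in some fit with 1 library left out, and no direction turned. Leaving out a library outside the comparison did not change the difference itself, as for Lipa, at -0.94 without either ACT_IL21 library. A call lost in that way does not show that it rested on the library left out. Of the 17 alternatives, 11 kept the call for Lipa, 10 for Rxra, 11 for Acss2, 13 for Scd2, 9 in each comparison for Gpr183, and 10 and 13 for Arl4c. In ACT against N, Lipa, Gpr183, Rxra and Arl4c each lost their calls without either N library (adjusted p between 0.102 and 0.28), without either ACT_IL21 library (0.0515 to 0.108) and without 1 ACT library, replicate 2 for Lipa (-0.84, adjusted p = 0.0505) and Arl4c (-0.74, adjusted p = 0.0606) and replicate 1 for Gpr183 (-0.69, adjusted p = 0.1) and Rxra (1.36, adjusted p = 0.145). In ACT_IL21 against N, Acss2, Arl4c and Scd2 each lost theirs without any 1 of the 4 libraries compared, at adjusted p of 0.0567 to 0.221, 0.061 to 0.0858 and 0.0654 to 0.0977. Gpr183 in ACT_IL21 against ACT lost its call without either N library (adjusted p = 0.0992 and 0.1), without ACT replicate 1 (0.98, adjusted p = 0.0797) and without either ACT_IL21 library (adjusted p = 0.232 and 0.22). Rxra stood at 3.53 and 3.96 TPM in N, 11.2 and 20.2 in ACT and 7.29 and 7.61 in ACT_IL21. Its order of pools was that of the natural killer and NKT marker sum, though not of each gene in that list. The part of such cells in the Rxra values was not tested.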

How the data were processed

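The deposited values were TPM per gene for 6 libraries, made by the authors from poly-A RNA amplified with a NuGEN Ovation kit, per the labels' protocols. Per the submitters' processing notes, Trimmomatic, Bowtie, RSEM and the GRCm38 build were used, with settings not given in the sources used here. TPM keeps no depth, so the depth per library is unknown and no counting interval is given.

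The 139 entries with a repeated symbol were summed, which gave 38216 symbols from 38355 entries. Genes at 1 TPM or more in at least 2 libraries (13311) were fitted as log2(TPM + 1) with limma 3.58.1 (R 4.3.3, intensity trend, all 3 pools in 1 fit). Benjamini-Hochberg adjustment ran over all genes tested within each comparison, with a threshold of 0.05, and intervals are 95%. Tests are two-sided. The fit was also run on simulated libraries with independent noise and known changes in ACT. That run cannot speak to the unknown origin of the libraries within a pool. Each difference is one of log2(TPM + 1), and for genes of low level it is smaller in size than the log2 ratio of the TPM values. Figures and motif counts used Python 3.11.15, and RefSeq windows (GRCm38.p6) gave promoter sequences.

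The 33 members, the gene lists and the tests were chosen with earlier results of these data known. Named were all 33 members and, from the further lists, each gene past the threshold. Alternatives were the pseudocount, the filter, scaling, the variance model, a fit of 2 pools, a replicate block and each library left out. For the further genes they were added after seeing the data.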

Additional observations from a re-analysis of the deposited data

Results flagged for a closer look

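The Abca1 levels of the 2 ICOS+ pools lay on opposite sides of N, with every ACT library above and every ACT_IL21 library below both N libraries. The difference between the ICOS+ pools, tested directly, was -2.76 ± 0.37 (SE, log2(TPM + 1) scale, limma adjusted p = 0.0129). It lost its call when any 1 of the 6 libraries was left out, at adjusted p of 0.0629 to 0.126.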

How the results depend on the processing

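Of the 17 alternatives, none turned the direction of a sterol gene that had passed. Without the filter, the number of sterol genes called went from 2, 2 and 1 (ACT against N, ACT_IL21 against N, ACT_IL21 against ACT) to 1, 1 and 0, and all genes called from 743, 677 and 259 to 469, 410 and 124. With 2 pools in the fit, all genes called were 417, 715 and 92, and sterol genes called were 1 for ACT_IL21 against N and 0 for ACT_IL21 against ACT. A pseudocount of 5 TPM and a fit with no intensity trend each left 1 sterol gene in ACT_IL21 against N. With no intensity trend Abca1 passed in ACT against N (adjusted p = 0.0471). The median of the sterol genes became -0.067, 0.0060 and 0.10 under upper quartile scaling and -0.063, -0.041 and 0.042 under quantile normalization. With 1 library left out, sterol genes called ranged from 0 to 2, 0 to 1 and 0 to 0, those of the F test from 0 to 2, all genes called from 205 to 526, 75 to 728 and 0 to 81, and the sterol median from -0.068 to 0.13, 0.08 to 0.16 and 0.08 to 0.15. In those fits the lone library of a pool is assumed to vary like the other pools. The cause of these changes was not tested, beyond the fewer samples or other genes that each setting uses.

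The replicate numbers share no stated source, and deviations of same-numbered libraries correlated at 0.21, -0.004 and 0.0008 for the 3 pairs of pools. With a replicate block, all genes called were 784, 732 and 284, and sterol genes called were 2, 1 and 1, with Abca1 in ACT_IL21 against N at adjusted p = 0.0646.

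With 2 libraries a pool of unstated origin, wide intervals remain for most sterol genes, and the depth behind low values such as those of Abca1 in ACT_IL21 is unknown.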
